A study of Homo sapiens with 9 samples.

Results

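The regions described here are the DNA:RNA hybrid peaks on the parts of the genome of which SH-SY5Y cells carry extra copies. SH-SY5Y is an established human neuroblastoma cell line whose karyotype is known to hold an additional chromosome 7 and gains of 1q, 2p and 17q. A peak belonged to them when its midpoint lay anywhere on chromosome 7, above base 145000000 on chromosome 1, below 50 Mb on chromosome 2 or above 45 Mb on chromosome 17 (hg38). Of 435537 peaks in the 8 deposited lists, 69555 (16.0%) met this rule, namely 27495 on chromosome 7, 18002 on 1q, 10773 on 2p and 13285 on 17q. These segments made up 12.2% of the peak-bearing length, counted as 1 Mb bins that held any peak. The rest of chromosomes 1, 2 and 17, with 63482 peaks, served as the comparison. It came from the same libraries and, for 1q, 2p and 17q, from the same chromosomes. Chromosome 7 was gained whole and has no counterpart in it. In bins of 1 Mb the gained segments measured 349 Mb and that rest 358 Mb.

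The libraries came from cells carrying a stable lentiviral short hairpin that targets TDP-43 (shTDP43) or a control hairpin (shNC). TDP-43 is the product of TARDBP and binds nucleic acids. Both lines went through 2 weeks in 2 µg/mL puromycin and were then kept at 1 µg/mL. Hybrids were enriched from 6 µg of restriction-cut nucleic acid with the antibody S9.6 (DRIP-seq), in 3 untreated libraries and 1 library digested with RNase H for 6 h per genotype. RNase H degrades the RNA strand of a hybrid and serves as the negative control. The labels do not say whether replicates came from separate transductions or cultures, so p-values measure only the spread between these libraries, which may be technical.

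An R-loop forms when a nascent RNA pairs with its template strand and leaves the other DNA strand single. R-loops are known to be frequent just downstream of promoters that are rich in G and C and carry more G than C on the non-template strand. In neuroblastoma, gain of 17q is the most frequent segmental gain, and 2p carries ALK and MYCN. The files hold no direct measure of copy number.

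To show the sequence context on each segment, 1 promoter per segment is given here. Each belongs to the gene of the chosen lists whose start region lay under a peak in all 6 untreated libraries and had the highest GC skew, the difference of G and C over their sum. All run 5′ to 3′ on the coding (non-template) strand, with 250 bases before and 50 after the RefSeq start (GRCh38.p14). Runs of at least 4 G are in capitals. AUTS2, a regulator of neuronal development, represents chromosome 7 (chr7:69598225-69598524, plus strand). SHC1, an adaptor of receptor tyrosine kinases, represents 1q (chr1:154974327-154974626, minus strand). DNMT3A, a DNA methyltransferase, represents 2p (chr2:25341876-25342175, minus strand). NME2, a nucleoside diphosphate kinase, represents 17q (chr17:51165286-51165585, plus strand).
AUTS2 promoter: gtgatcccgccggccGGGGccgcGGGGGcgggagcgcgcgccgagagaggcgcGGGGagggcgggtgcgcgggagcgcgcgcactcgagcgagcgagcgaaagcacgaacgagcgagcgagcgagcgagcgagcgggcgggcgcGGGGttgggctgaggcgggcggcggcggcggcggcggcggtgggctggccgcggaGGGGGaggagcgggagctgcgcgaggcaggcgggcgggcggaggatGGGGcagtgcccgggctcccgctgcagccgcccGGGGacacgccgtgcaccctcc
SHC1 promoter: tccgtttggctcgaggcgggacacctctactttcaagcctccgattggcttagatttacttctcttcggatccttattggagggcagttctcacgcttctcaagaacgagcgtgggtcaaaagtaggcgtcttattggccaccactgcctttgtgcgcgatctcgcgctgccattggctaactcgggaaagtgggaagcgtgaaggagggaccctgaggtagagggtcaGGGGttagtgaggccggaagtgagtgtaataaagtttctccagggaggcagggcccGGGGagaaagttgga
DNMT3A promoter: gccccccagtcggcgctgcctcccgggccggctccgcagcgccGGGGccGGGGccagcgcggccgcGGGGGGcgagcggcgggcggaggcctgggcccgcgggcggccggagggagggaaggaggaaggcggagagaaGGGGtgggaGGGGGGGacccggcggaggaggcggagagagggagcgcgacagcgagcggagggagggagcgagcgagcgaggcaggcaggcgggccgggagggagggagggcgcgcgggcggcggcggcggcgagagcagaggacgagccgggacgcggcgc
NME2 promoter: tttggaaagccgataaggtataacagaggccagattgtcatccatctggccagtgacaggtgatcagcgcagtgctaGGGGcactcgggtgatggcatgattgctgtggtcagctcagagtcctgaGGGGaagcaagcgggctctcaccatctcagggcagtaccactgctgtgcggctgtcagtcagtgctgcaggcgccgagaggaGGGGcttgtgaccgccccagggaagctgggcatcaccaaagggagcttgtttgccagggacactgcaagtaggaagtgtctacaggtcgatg
The GC skew of these windows was 0.29 for AUTS2, 0.20 for SHC1, 0.36 for DNMT3A and 0.20 for NME2, and their GC content was 82.3% for AUTS2, 55% for SHC1, 83% for DNMT3A and 58% for NME2. The AUTS2 window held 7 runs of G, the SHC1 window 2, the DNMT3A window 5 and the NME2 window 3.

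The background estimate was higher on the gained segments. MACS2 prints, for each peak, a fold enrichment and a p-value made from the same pileup and background, so the background under the summit could be solved for and divided by the lowest background of its library, the floor. On the gained segments the median background was 1.501, 1.491 and 1.487 times the floor in shTDP43 replicates 1 to 3, and 1.506, 1.509 and 1.498 times in shNC replicates 1 to 3. On the rest it was 1.000, 1.000 and 1.0092 times the floor in shTDP43, and 1.0103, 1.0061 and 1.000 times in shNC. No library overlapped between the 2 sets, and 4.27% ± 0.33 of summits on the gained segments stood at the floor in shTDP43 and 3.84% ± 0.10 in shNC (SD, n = 3 each), against 51.4% ± 1.61 and 50.5% ± 1.73 on the rest.

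The ratio of gained over rest was 1.49 ± 0.010 (SD, n = 6), or 0.58 ± 0.01 on the log2 scale, higher in 6 of 6 libraries. As the median of the rest stood at or near the floor, this ratio in effect sets the gained median against the floor. A 2-sided exact permutation test gave p = 0.03125 (adjusted over 4 measures 0.03125), the smallest that 6 libraries allow. The background is not an independent measurement in each library, however. At summits that fell on the same base in any pair of untreated libraries (2766 to 4239 summits), the solved backgrounds were proportional with r between 0.994 and 1.000, so the p-value does not rest on 6 independent measurements. The control used in peak calling is not stated in these sources. By segment the ratio to the rest was 1.43 ± 0.010 on chromosome 7, 1.51 ± 0.010 on 1q, 1.51 ± 0.011 on 2p and 1.53 ± 0.011 on 17q. Chromosome 7 was lowest in every library.

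The elevation ran through most bins of the segments and ended near the boundaries of the rule. Of 268 gained bins of 1 Mb with at least 20 summits, 262 (97.8%) had a median background more than 25% above the floor, against 4 of 263 (1.52%) on the rest of the 3 chromosomes and 38 of 1437 (2.64%) on the other chromosomes. On chromosome 2 the bin from 48 to 49 Mb stood at 1.28 and the bin from 53 to 54 Mb, the first one outside with at least 20 summits, at 1.00. On chromosome 17 the bin from 44 to 45 Mb stood at 1.03, the bin from 45 to 46 Mb at 1.16 and the bin from 46 to 47 Mb at 1.53. On chromosome 1 the first bin inside the boundary stood at 1.54, but those from 146 to 147 Mb and from 148 to 149 Mb were at 1.00, as was the last bin outside. On chromosome 17 the first bin more than 25% above the floor began 1 Mb inside the boundary, and on 1q the bins next to the boundary were mixed.

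**Figure D1:**
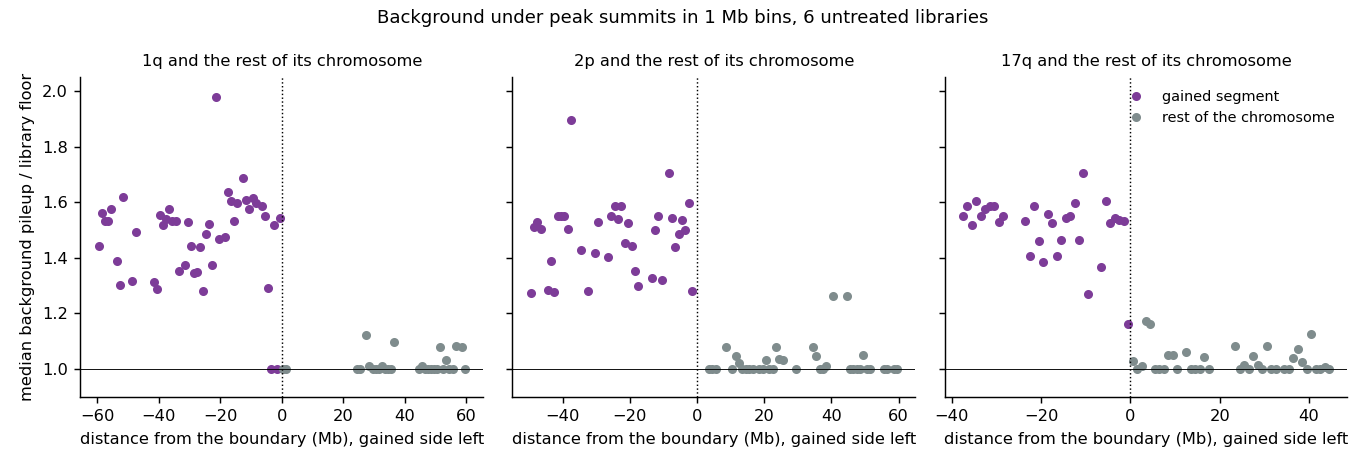
Median background pileup over the library floor (y axis) in 1 Mb bins with at least 20 summits, against distance from the boundary in Mb (x axis, gained side left, bins within 60 Mb), for 1q, 2p and 17q in purple and the rest of their chromosomes in grey. Most gained bins lie more than 25% above the floor and most bins of the rest at or near 1.00, with 2 bins of 1q at 1.00 close to the boundary.

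Peak density was raised by less than the background. Over all gained segments the untreated libraries held 26.0, 30.8 and 32.4 peaks per Mb in shTDP43 and 33.5, 32.1 and 31.5 in shNC, against 23.4, 28.9 and 28.9 in shTDP43 and 30.2, 28.5 and 29.2 in shNC on the rest. Each library was higher on the gained segments than on its own rest, with a ratio of 1.102 ± 0.026 (SD, n = 6; log2 0.14 ± 0.03; exact permutation test, 2-sided, p = 0.03125, adjusted 0.03125). Covered length gave 1.15 ± 0.018 (log2 0.20 ± 0.02) and median peak width 1.03 ± 0.008 (log2 0.04 ± 0.01), each higher in 6 of 6 libraries with the same exact p of 0.03125 (adjusted 0.03125). Other settings moved the size of the log2 density ratio, which was 0.486 against all other autosomes and X and 0.069 per Mb of coding gene span. The density and covered-length ratios rested on 17q. Without 17q, an alternative added after the values were seen, the density ratio was −0.00013 on the log2 scale (exact p adjusted 1) and covered length turned to −0.03 (exact p adjusted 0.0417).

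Segment by segment, the ratio of peak density to the rest was 0.967 ± 0.022 on chromosome 7, 0.952 ± 0.028 on 1q, 1.20 ± 0.037 on 2p and 1.91 ± 0.074 on 17q (SD, n = 6). All 6 untreated libraries had 1q below the rest and 2p and 17q above it, and 5 of 6 had chromosome 7 below it. Covered length gave 0.972 ± 0.015 on chromosome 7, 0.941 ± 0.020 on 1q, 1.07 ± 0.038 on 2p and 2.51 ± 0.077 on 17q. The 17q segment was also the most gene-dense, with 11.5 coding genes per Mb, against 6.01 on chromosome 7, 9.28 on 1q, 5.26 on 2p and 7.84 on the rest.

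Set against the rest of its own chromosome, each arm looked different again. The 17q segment held 53.7 ± 3.19 peaks per Mb and the rest of chromosome 17 held 54.6 ± 2.14, a ratio of 0.983 ± 0.037. The 2p segment held 33.9 ± 3.36 peaks per Mb against 17.97 ± 2.19 on the rest of chromosome 2, a ratio of 1.89 ± 0.077. The 1q segment held 26.9 ± 2.47 peaks per Mb against 34.9 ± 2.94 on the rest of chromosome 1, a ratio of 0.769 ± 0.023 (SD, n = 6 for each). Per Mb of coding gene span the same ratios were 0.974 ± 0.035 for 17q, 2.07 ± 0.097 for 2p and 0.759 ± 0.018 for 1q. The ratio of median widths was 0.938 ± 0.042 for 17q, 1.09 ± 0.031 for 2p and 0.985 ± 0.019 for 1q.

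**Figure D2:**
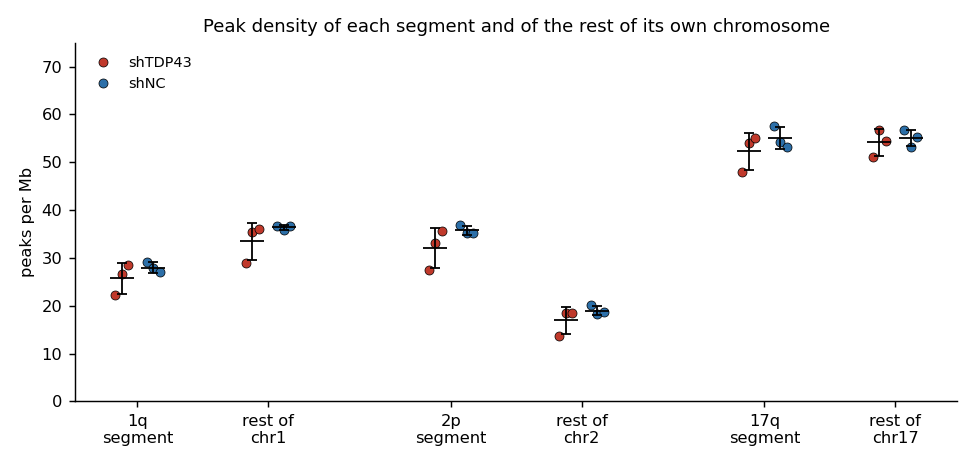
Peaks per Mb (y axis) in the untreated libraries of shTDP43 (red) and shNC (blue) on each segment and on the rest of its own chromosome; points are libraries, black marks the mean and SD of 3. The 2p segment lies above the rest of chromosome 2, the 1q segment below the rest of chromosome 1, and 17q and the rest of chromosome 17 overlap.

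Called peaks on the gained segments had higher pileups but slightly lower enrichment. A summit over a higher background needs a higher pileup to be called at the same threshold. Pileup and background were also solved from the same fold and p, so these tests are not separate from that of the background. The median summit pileup was 1.16 ± 0.050 times that of the rest, and the authors' median fold enrichment over background was 0.968 ± 0.009 times that of the rest, which was below 1 in 6 of 6 libraries (exact permutation test, 2-sided, p = 0.03125 for each, adjusted over the pair 0.03125; measures added after the data were seen). Within each segment peaks were clustered. Ranking the 1 Mb bins by peaks, the top 10% held 37.3% of the peaks on chromosome 7, 32.8% on 1q, 31.6% on 2p and 27.3% on 17q, against 34.7% on the rest. Across bins, peaks followed the number of coding genes with Spearman's rho of 0.74 on chromosome 7, 0.63 on 1q, 0.74 on 2p and 0.76 on 17q (149, 100, 48 and 39 bins), against 0.81 on the rest (337 bins). Bins share their libraries, and these values are descriptions.

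The densest bins were named by what they hold. On 2p it was the bin from 29 to 30 Mb, with 159.7 ± 21.5 peaks and 4 coding genes, which lies largely within ALK, the receptor tyrosine kinase mutated in part of neuroblastomas. On 17q it was the bin from 57 to 58 Mb, with 161.5 ± 3.73 peaks (SD, n = 6), which holds the whole of MSI2, an RNA-binding protein of progenitor cells. ALK and MSI2 were also the genes with the longest covered length on their segments. ALK carried 199.9 ± 42.4 kb under peaks in shTDP43 and 300.04 ± 26.0 kb in shNC, and MSI2 carried 200.7 ± 47.2 kb in shTDP43 and 253.3 ± 19.7 kb in shNC (SD, n = 3 each). On chromosome 7 MAD1L1, a spindle checkpoint protein, led with 168.1 ± 39.0 kb in shTDP43 and 193.4 ± 15.1 kb in shNC.

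Most summits lay inside genes. On the gained segments 6.73% ± 0.69 of summits were within 1 kb of a coding start, 73.7% ± 1.10 elsewhere in a coding gene, 6.12% ± 0.24 in another annotated gene and 13.4% ± 0.44 outside annotated genes. On the rest these shares were 8.59% ± 0.69, 74.8% ± 1.08, 4.59% ± 0.18 and 12.006% ± 0.43 (SD, n = 6). Merging the 6 untreated lists gave 15237 regions on the gained segments, of which 3985 (26.2%, Wilson 95% interval 25.5 to 26.9) were present in all 6 libraries, against 3543 of 14553 (24.3%, 23.7 to 25.0) on the rest. The regions in all 6 were broad, with a median of 3488 bp, and those in a single library, 36.4% of the regions, had a median of 365 bp. The intervals cover counting error only.

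On 3 of the segments the longest regions present in all 6 untreated libraries were as follows. On 17q, chr17:81663112-81724657 ran for 61546 bp over 7 coding genes including HGS, an endosomal sorting protein, and MRPL12, a mitochondrial ribosomal protein. On chromosome 7, chr7:1456419-1507797 spanned MICALL2 and INTS1, a subunit of the Integrator complex. On 2p, chr2:25350053-25385179 lay in DTNB, which encodes dystrobrevin beta. After RNase H 643 bp (shTDP43) and 690 bp (shNC) of the DTNB region were covered, against 23087 to 33107 bp in the untreated libraries. The MICALL2 region kept 6025 bp (shTDP43) and 13777 bp (shNC) after RNase H, against 48127 to 51098 bp in the untreated libraries.

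Of 3016 start regions on the gained segments, 1221 (40.5%) lay under a peak in all 6 untreated libraries and 1321 (43.8%) in none, against 38.4% and 40.8% of 3262 on the rest. The share in all 6 was 39.4% on chromosome 7, 34.2% on 1q, 49.5% on 2p and 52.2% on 17q. Start regions under a peak in all 6 libraries had a median GC content of 67.3%, against 53.0% in those under none. Their median GC skew was 0.025 against 0.017, but the order differed by segment. It was 0.027 against 0 on 1q and 0.031 against 0.028 on 2p. On chromosome 7 it was 0.019 against 0.024 and on 17q 0.033 against 0.038, so covered start regions had the lower skew there. On the coding strand 90.0% against 70.9% held GGGG (85.8% against 69.3% on the other strand, both including overlapping runs). For comparison, 81.1% of all 22132 start regions held GGGG on the coding strand and 78.8% on the other. The repeat TGTGTG is the UG-type sequence known to be bound by TDP-43 in RNA. On the coding strand it was in 5.65% of the covered and 11.7% of the uncovered start regions (4.50% and 9.46% on the other strand). Of all start regions 8.73% held it there and 7.39% on the other strand. On the rest it was in 5.67% of the covered and 10.3% of the uncovered start regions on the coding strand. GGGG on the coding strand was in 90.1% of the covered and 72.4% of the uncovered start regions of the rest. Median GC content on the rest was 68% in covered and 54% in uncovered start regions. The contrasts in GC content, GGGG and TGTGTG were therefore not particular to the gained segments. Each window holds 250 bases before the start and 50 after, so most of it is not in the RNA from that start.

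Coverage was skewed into the transcribed side. Over the 2 kb downstream of coding starts, 36.6% ± 3.97 of bases lay under peaks in shTDP43 and 40.7% ± 1.66 in shNC, against 30.5% ± 3.34 and 33.4% ± 1.10 over the 2 kb upstream (SD, n = 3 each). The ratio of the sides was 1.20 ± 0.009 in shTDP43 and 1.22 ± 0.010 in shNC on the gained segments, and 1.21 ± 0.009 and 1.22 ± 0.009 on the rest. Replicate 1 of shTDP43, the library with the lowest background floor among the untreated, lay lowest in the profile.

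**Figure D3:**
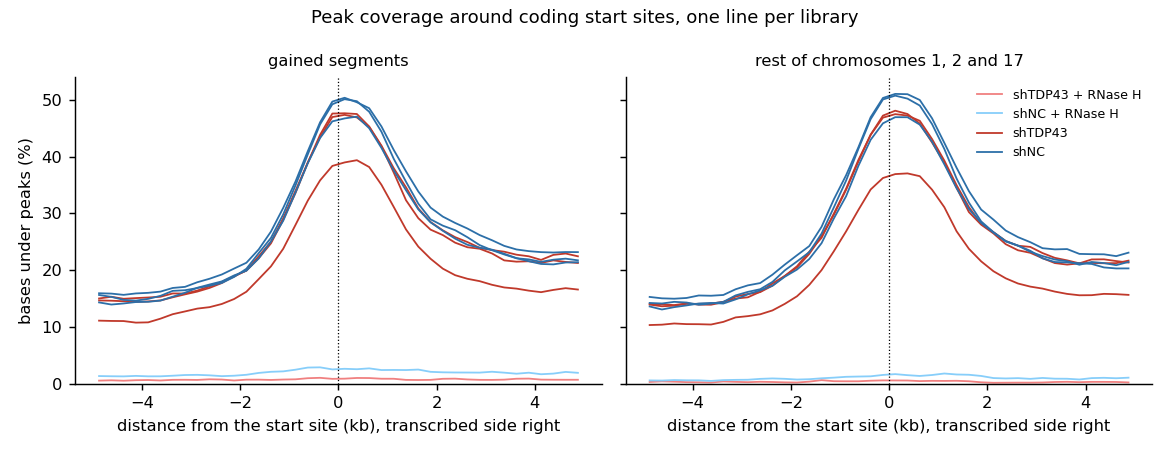
Bases under peaks in percent (y axis) by distance from coding start sites in kb (x axis, transcribed side right) on the gained segments (left) and the rest of chromosomes 1, 2 and 17 (right), with a line per library. Untreated libraries peak at 39.4% to 50.4% within 0.5 kb downstream of the start on the gained segments, and RNase H-treated libraries reach at most 2.90%.

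After RNase H the balance between the segments and the rest was different. The treated shTDP43 list held 1532 peaks on the gained segments and 1066 on the rest, and the treated shNC list 3016 and 1875. Of the peaks on either set, 58.97% (Wilson 95% interval 57.1 to 60.8) lay on the gained segments in treated shTDP43 and 61.7% (60.3 to 63.0) in treated shNC. The untreated shares were 52.0%, 50.9% and 52.2% in shTDP43 replicates 1 to 3 and 52.0%, 52.4% and 51.2% in shNC replicates 1 to 3. Both treated libraries lay above all 6 untreated ones. With 1 treated library per genotype there is no replicate check and no test of this difference.

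In density terms the treated ratio of gained over rest was 1.47 in shTDP43 and 1.65 in shNC. The background ratios of the same treated libraries were 1.38 and 1.40, and the part of the background in the density ratio was not tested. By segment, treated shTDP43 and shNC had ratios of 1.49 and 1.57 on chromosome 7, 1.35 and 1.52 on 1q, 1.38 and 1.52 on 2p and 1.85 and 2.48 on 17q. Chromosome 7 and 1q, which were at or below the rest without RNase H, were above it after RNase H in both libraries. Treated peaks that overlapped no untreated peak of their genotype had ratios of 1.37 in shTDP43 (747 peaks against 558) and 1.58 in shNC (1348 against 875). For these peaks the ratios ranged between 1.20 and 1.48 over the 4 segments in shTDP43 and between 1.51 and 1.60 in shNC, and 17q no longer stood apart. On all other chromosomes the ratio was 0.960 in shTDP43 and 0.978 in shNC.

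Untreated peaks on the gained segments also coincided more often with a treated peak. The share was 4.61%, 4.26% and 4.69% in shTDP43 replicates 1 to 3, against 3.68%, 3.47% and 3.74% on the rest. In shNC it was 7.78%, 9.08% and 7.64%, against 5.72%, 6.62% and 5.49% on the rest. The gained share was higher in 6 of 6 libraries, but the 3 libraries of a genotype were compared with the same treated list. Treated peaks were themselves denser on the gained segments, at 4.39 per Mb against 2.98 on the rest in shTDP43. In shNC they stood at 8.64 against 5.24, and the part of this density in the coincidence was not tested. The treated lists differed in length, with 8916 peaks in shTDP43 and 15580 in shNC, so the genotypes are not compared here.

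**Figure D4:**
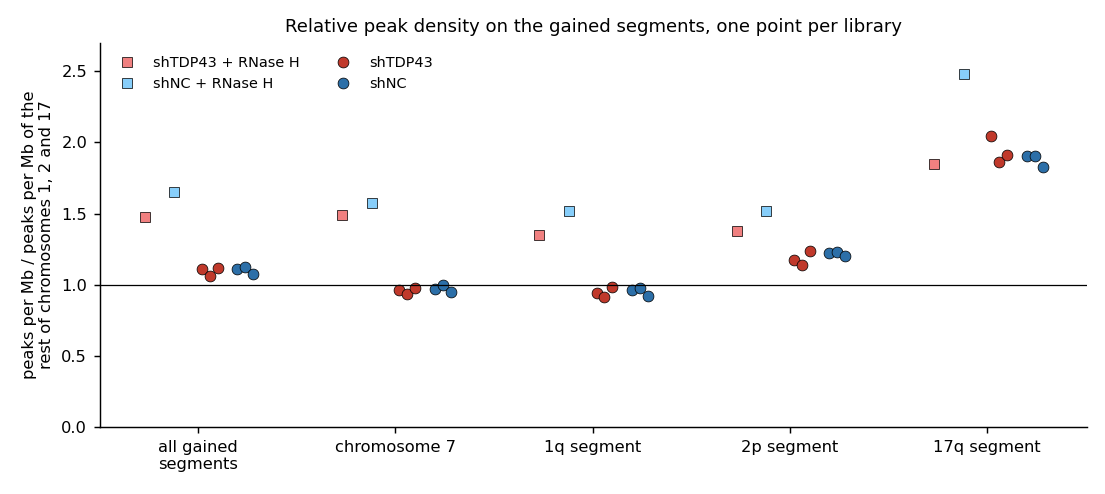
Peaks per Mb on all gained segments and on each of them, divided by peaks per Mb on the rest of chromosomes 1, 2 and 17 (y axis); squares are the single RNase H-treated libraries and circles the untreated libraries of shTDP43 (red shades) and shNC (blue shades). Treated libraries lie at 1.35 or above everywhere, while untreated ones lie near 1 on chromosome 7 and 1q, near 1.20 on 2p and near 1.91 on 17q.

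The genotypes did not differ detectably in how much of the signal lay on the gained segments. The share of peaks on them, of peaks on them and the rest together, averaged 51.7% ± 0.70 in shTDP43 and 51.9% ± 0.58 in shNC (SD, n = 3 each), a difference of −0.15 percentage points (exact permutation test, 2-sided, p = 0.7). The share of covered length averaged 52.8% ± 0.55 in shTDP43 and 52.8% ± 0.30 in shNC (difference 0.03 points, exact p = 0.9). That difference was 1.12 points when peaks also called in the treated library of the same genotype were removed (exact permutation p = 0.1, adjusted 0.4), and the treated lists differ in length. The log2 ratio of widths was 0.04 ± 0.007 in shTDP43 and 0.03 ± 0.016 in shNC (exact p = 0.7), and that of background 0.57 ± 0.014 and 0.58 ± 0.005 (exact p = 0.6). All 4 adjusted p-values were 0.9 in these permutation tests, and 3 libraries against 3 cannot go below 0.1.

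Regions specific to a genotype were few. Of the 15237 merged regions, 38 (0.249%, Wilson interval 0.182 to 0.342) were present in all 3 shTDP43 libraries and no shNC library, against a background of 0.258% of all 99429 regions. The reverse class, all 3 shNC libraries and no shTDP43 library, held 216 (1.42%, 1.24 to 1.62), against a background of 1.27%. With all peaks used, both shares are near the genome's own. With an equal number of the strongest peaks per library, 36 regions (0.287%, against 0.494% on the rest) were of shTDP43 alone and 161 (1.28%, against 1.006% on the rest) of shNC alone. The longest shNC-only region of each segment lay in PLXNA4 (chr7:132180902-132187024), GARIN4 (chr1:212624146-212627171), TRIB2 (chr2:12730907-12733850) and CRHR1, the receptor for corticotropin-releasing hormone (chr17:45826828-45830687, which also lies in the readthrough gene LINC02210-CRHR1). The PLXNA4 region held 3870, 3438 and 3841 bp in shNC replicates 1 to 3 and, as the class requires, 0 bp in all 3 shTDP43 libraries. The longest shTDP43-only regions were shorter and lay in GTF2I (989 bp), SYT2 (1299 bp), FBXO11 (822 bp) and KANSL1 (1507 bp).

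Gene by gene, 1712 coding genes on the segments had enough coverage to be tested between shTDP43 and shNC, of 2616 annotated there. The value was the length under peaks within the gene and 1 kb on either side, and log2 changes are on the scaled log2 (length + 100 bp) scale with their SE. In these bulk libraries, fewer cells carrying a hybrid and less hybrid per cell cannot be told apart. By limma with Benjamini-Hochberg adjustment over all 12810 genes, 3 gained-segment genes rose and 10 fell, or 0.759%, against a background of 0.921% (0.749% lower and 0.172% higher) over all genes and 1.07% on the rest. A share this close to the background is no result about the segments. At an unadjusted p under 0.05, 201 genes on the segments (11.7%) passed, against a background of 11.5% over all genes. None of the 351 tested genes of 17q passed after adjustment, and 41 of them (11.7%) had an unadjusted p under 0.05 by limma. Among the tested genes, 58.2% on the segments had a positive log2 change, with a median of 0.05, against 54.2% and 0.03 on the rest. Without scaling to the library's covered length the median over all genes was −0.15, against 0.05 with it, and 352 of the 1712 genes were positive, so the sign of small changes depends on the scaling.

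PLXNA4 (chr7:132123340-132648688, GRCh38.p14), a plexin that receives semaphorin signals in axon guidance, fell most on chromosome 7. It had 11.5, 19.1 and 22.2 kb under peaks in shTDP43 replicates 1 to 3, against 127.7, 105.2 and 105.2 kb in shNC. The groups did not overlap, with a log2 change of −2.52 ± 0.11 (limma, adjusted p = 0.000148). RNase H left 2.803 kb in shTDP43 and 10.7 kb in shNC. Groups that do not overlap were common, at 14.0% of all tested genes lower and 0.796% higher in shTDP43. The libraries covered 91.6, 128.4 and 130.9 Mb in shTDP43 and 142.0, 129.8 and 125.5 Mb in shNC over the genome, and the part of this in the overlap was not tested. The promoter of PLXNA4 (chr7:132576421-132576720, minus strand) lay under a peak in all 6 untreated libraries. It is shown because the start was covered in both genotypes, again with runs of G in capitals.
PLXNA4 promoter: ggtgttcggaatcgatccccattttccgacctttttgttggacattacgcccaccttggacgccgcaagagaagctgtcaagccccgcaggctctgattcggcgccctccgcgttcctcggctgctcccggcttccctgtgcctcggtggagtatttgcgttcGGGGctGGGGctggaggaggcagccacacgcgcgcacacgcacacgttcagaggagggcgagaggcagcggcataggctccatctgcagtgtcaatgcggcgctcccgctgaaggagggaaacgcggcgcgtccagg
The window had a GC content of 64.3%, a GC skew of 0.03 and 2 runs of G.

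TNS3 (chr7:47275154-47582586), a tensin of focal adhesions, had 2.54, 3.06 and 3.02 kb in shTDP43 and 15.4, 16.7 and 12.4 kb in shNC, with no overlap and a log2 change of −2.13 ± 0.15 (limma, adjusted p = 0.00185). UMAD1 had 1.32, 2.68 and 2.46 kb in shTDP43 and 9.08, 8.77 and 6.04 kb in shNC (log2 −1.69 ± 0.20, limma adjusted p = 0.0105). UMAD1 shares part of its span with RPA3, a subunit of the single-strand DNA-binding protein RPA, so their coverage cannot be fully separated. Also on chromosome 7, 3 more genes fell. HDAC9, a class IIa histone deacetylase, had 10.7, 15.8 and 23.003 kb in shTDP43 and 35.5, 34.8 and 32.8 kb in shNC (log2 −0.93 ± 0.15, limma adjusted p = 0.0339). CREB5, a transcription factor of the CREB family, changed by −0.90 ± 0.12 and TPST1, a protein-tyrosine sulfotransferase, by −1.23 ± 0.18 (limma, adjusted p = 0.0178 and 0.0214), and neither overlapped between the groups. PRKAR1B, a regulatory subunit of protein kinase A enriched in neurons, rose by 0.46 ± 0.07 (limma, adjusted p = 0.0259), although its unscaled lengths overlapped, at 71.6, 99.0 and 100.9 kb in shTDP43 and 82.2, 78.0 and 63.9 kb in shNC. Part of its span overlaps DNAAF5, so their coverage cannot be fully separated. AUTS2 and MINDY4, next in the same direction, did not pass, at 0.46 ± 0.08 and 0.52 ± 0.09 (limma, adjusted p = 0.0512 and 0.0546).

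On 1q a channel gene rose. KCNH1 (chr1:210678314-211134148), a voltage-gated potassium channel of the EAG family, had 34.5, 45.8 and 59.0 kb in shTDP43 and 29.7, 26.0 and 23.7 kb in shNC. All shTDP43 libraries were above all shNC libraries, with a log2 change of 0.98 ± 0.10 (limma, adjusted p = 0.00583). INSRR, the insulin receptor-related receptor, fell by 0.66 ± 0.11 on the log2 scale (limma, adjusted p = 0.0385), and its span overlaps another coding gene, so its coverage cannot be fully separated. NMNAT2, which makes NAD in axons, had a log2 change of −0.62 ± 0.11 that did not pass (limma, adjusted p = 0.0512).

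On 2p, TRIB2 (chr2:12716936-12742734), a Tribbles pseudokinase, had 2.55, 4.45 and 5.11 kb in shTDP43 and 13.8, 10.3 and 10.4 kb in shNC (log2 −1.34 ± 0.16, limma adjusted p = 0.0105). ALK (chr2:29192774-29921586) had 157.3, 200.4 and 242.1 kb in shTDP43 and 328.0, 276.5 and 295.5 kb in shNC, with no overlap and a log2 change of −0.41 ± 0.07 (limma, adjusted p = 0.0393). EPAS1 (chr2:46297407-46386697), the hypoxia-inducible factor HIF-2 alpha, was the gene that rose, with 27.1, 33.7 and 36.7 kb in shTDP43 and 26.6, 22.5 and 24.3 kb in shNC (log2 0.59 ± 0.08, limma adjusted p = 0.0178). HPCAL1, a neuronal calcium sensor, and RRM2, a ribonucleotide reductase subunit, had log2 changes of −0.77 ± 0.16 and 0.27 ± 0.07 that did not pass (limma, adjusted p = 0.083 and 0.165). The promoters of KCNH1 (chr1:211134099-211134398, minus strand), TRIB2 (chr2:12716686-12716985, plus strand) and ALK (chr2:29921537-29921836, minus strand) lay under a peak in all 6 untreated libraries. They are given as examples from the called genes of 1q and 2p.
KCNH1 promoter: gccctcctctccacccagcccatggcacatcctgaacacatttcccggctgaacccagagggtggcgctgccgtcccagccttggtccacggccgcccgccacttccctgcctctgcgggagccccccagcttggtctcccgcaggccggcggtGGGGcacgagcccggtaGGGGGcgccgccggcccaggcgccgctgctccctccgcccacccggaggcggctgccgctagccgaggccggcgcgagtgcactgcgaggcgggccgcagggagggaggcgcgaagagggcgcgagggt
TRIB2 promoter: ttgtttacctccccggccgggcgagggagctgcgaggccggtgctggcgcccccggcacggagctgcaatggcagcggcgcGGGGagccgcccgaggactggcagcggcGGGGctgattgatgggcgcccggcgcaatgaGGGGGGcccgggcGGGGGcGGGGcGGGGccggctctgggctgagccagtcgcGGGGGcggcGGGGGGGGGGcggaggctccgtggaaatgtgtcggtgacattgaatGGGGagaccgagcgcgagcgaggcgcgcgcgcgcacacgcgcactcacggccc
ALK promoter: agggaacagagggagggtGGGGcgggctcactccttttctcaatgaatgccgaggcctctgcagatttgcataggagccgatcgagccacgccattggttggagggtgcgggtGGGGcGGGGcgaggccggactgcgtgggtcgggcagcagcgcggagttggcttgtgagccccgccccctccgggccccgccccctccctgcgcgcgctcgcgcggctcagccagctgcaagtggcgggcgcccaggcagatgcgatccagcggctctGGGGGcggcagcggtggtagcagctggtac
Among the promoters shown here TRIB2 had the most runs of G, 9, and a GC skew of 0.24. ALK had 4 runs and a skew of 0.15, and KCNH1 2 runs and a skew of −0.05. Other start regions of called genes were also covered in all 6 untreated libraries. A second one of ALK had 1 run and a skew of −0.28. Of genes that rose, EPAS1 had 3 runs and a skew of 0, and PRKAR1B had 5 and 4 runs and skews of 0.28 and 0.16. A link of skew to the direction of change was not tested.

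On 17q the genes nearest the threshold were LLGL2, a cell polarity protein, at −1.77 ± 0.33, PLCD3, a phospholipase C, at −0.53 ± 0.10, and TRIM47, a tripartite motif protein, at −2.09 ± 0.42, with adjusted p of 0.0588, 0.0667 and 0.0731 by limma. On the positive side NPLOC4, a cofactor of the VCP segregase, had 0.30 ± 0.07, NARF 0.37 ± 0.09 and SAP30BP 0.27 ± 0.07 (limma, adjusted p between 0.121 and 0.155).

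**Figure D5:**
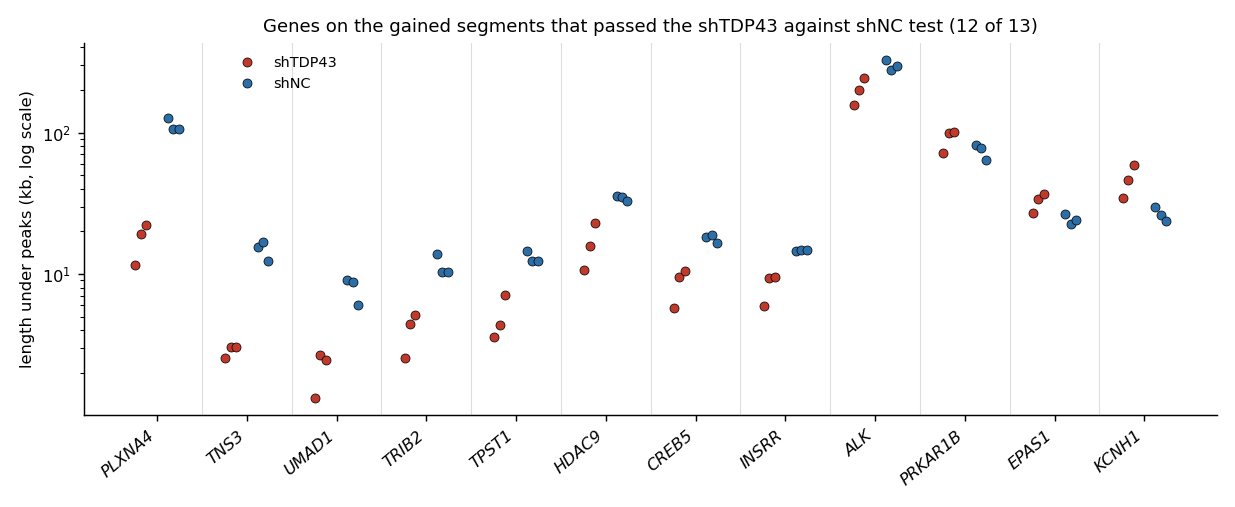
Length under peaks in kb (y axis, log scale) for 12 of the 13 genes on the gained segments that passed the test, with shTDP43 libraries in red and shNC libraries in blue, unscaled, ordered by log2 change. Among the genes shown, the groups overlap in PRKAR1B and are separate in the others.

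The calls depended on the shNC libraries and on the processing. PLXNA4, TNS3 and KCNH1 passed whichever of the 6 libraries was left out, and the other 10 each lost the call without at least 1 shNC library. Leaving out shNC replicate 1, 2 or 3 kept 3, 3 and 4 of the 13 calls, and leaving out shTDP43 replicate 1, 2 or 3 kept 11, 10 and 11. The dependence was not particular to the segments. Over all genes 118 were called, and 18, 32 and 27 without shNC replicate 1, 2 or 3. Without shTDP43 replicate 1, 2 or 3 there were 223, 147 and 122. Of the 13 calls, 12 were lost without scaling, 8 at a −log10 q of at least 5, 12 at 10, 8 without a variance trend and 4 with the replicate block. The number called over all genes was 20, 33, 32, 75 and 74 in the same order. Over these settings PLXNA4 lost its call without scaling (limma, adjusted p = 0.103), TNS3 at both −log10 q minima (limma, adjusted p up to 0.0531) and KCNH1 without scaling and at both minima (limma, adjusted p up to 0.536).

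The lists of genes chosen for neuroblastoma and neuronal biology gave the following counts. They were chosen with earlier results of these data known, so the counts are descriptions. Over all tested genes 0.921% passed by limma, and 11.5% had an unadjusted p under 0.05. Of the growth signalling genes, 9 of 10 could be tested, 0 rose and 2 fell, ALK among them, with a median log2 change of −0.34, against 0.05 over all 12810 genes. Of these 9 genes, 4 (44.4%) had an unadjusted p under 0.05 by limma. PRKCA, protein kinase C alpha, had −0.54 ± 0.14 and did not pass (limma, adjusted p = 0.148). MET, a receptor tyrosine kinase on chromosome 7, carried a peak in shNC replicate 3 alone. Of the 12 neuronal genes, 11 were tested, 1 rose (KCNH1) and 1 fell (PLXNA4), with a median of 0.06 and a range of −2.52 to 1.87. Of these 11 genes, 7 (63.6%) had an unadjusted p under 0.05 by limma. Of the 4 genes at the MYCN locus, 3 were tested and 0 passed. MYCN itself, the oncogenic transcription factor, had 0.800, 1.84 and 2.27 kb in shTDP43 and 2.62, 2.79 and 2.76 kb in shNC (log2 −0.63 ± 0.29, limma adjusted p = 0.467).

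No gene of the remaining lists passed by limma, and 4 of the 26 tested in them (15.4%) had an unadjusted p under 0.05, against 11.5% over all genes. In transcription and chromatin 9 of 11 were tested, with a median of 0.14. In cell cycle, survival and repair 11 of 12 were tested, with a median of 0.09, and CDK6, a kinase of the G1 phase, had the lowest value, −0.48 ± 0.15 (limma, adjusted p = 0.252). In metabolism all 5 were tested, with a median of 0.10, and of the 2 RNA-binding genes MSI2 was tested, at −0.17 ± 0.05 (limma, adjusted p = 0.263), while IGF2BP1 had no peak in any untreated library. TBX2, a T-box factor on 17q, and MCL1, an anti-apoptotic BCL2 relative on 1q, were covered along their whole length in all 6 libraries, and their log2 change of 0.19 came from the scaling alone. On the segments 77 of the 1712 tested genes (4.50%) were in that state, against 89 of 1871 (4.76%) on the rest.

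Values for the whole series bear on these results as follows. The untreated lists held 57277 to 73456 peaks and the treated ones 8916 (shTDP43) and 15580 (shNC). The background floor was 1.051 in shTDP43 replicate 1 and 1.62 to 2.01 in the other 5 untreated libraries. TARDBP, the targeted gene, which lies on chromosome 1 outside the gained segments, had 6.82, 9.87 and 10.2 kb under peaks in shTDP43 and 14.2, 10.3 and 12.7 kb in shNC (log2 −0.28 ± 0.12, limma adjusted p = 0.443), and hybrid coverage is no check of the knockdown. Of the 7 adrenergic neuroblastoma markers 6 carried peaks in all 6 libraries and TH carried none, while of 6 mesenchymal markers 2 (VIM and TWIST1) did so and PRRX1, COL1A1 and COL1A2 carried none. None of the tested markers passed between genotypes, and hybrid coverage is not expression.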

How the data were processed

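S9.6 DRIP-seq peak lists of 8 SH-SY5Y libraries were used, 1 list per library. The input library was not analysed here. Per the submitters' processing notes, peaks come from MACS2 2.2.6 and alignments from Bowtie2 2.4.4 with SAMtools on hg38; settings are not given in the sources used here. The deposited lists hold, per peak, the authors' fold enrichment (a ratio), −log10 p and −log10 q values, and a deposited score that equals 10 times the −log10 q, cut to a whole number, in nearly all peaks. They hold no read counts, so read depth is unknown. Background and pileup at each summit were solved from fold and p, within 0.001 of the deposited −log10 p.

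Ratios of gained segments over the rest were compared over libraries with exact permutation tests (SciPy 1.17.1). Covered length of coding gene spans (RefSeq, GRCh38.p14) plus 1 kb was scaled to the median library total, offset by 100 bp, kept at a mean of at least 500 bp and tested with limma 3.58.1 in R 4.3.3, with Benjamini-Hochberg adjustment and a threshold of 0.05. The code was tested on simulated data with 200 of 12810 genes changed. There limma called 51% of genes changed by 1 on the log2 scale and 80% of those changed by 2, with 3 false calls. Genes that did not pass can therefore hold changes of this size. Regions were merged at an overlap of 1 bp. RefSeq start regions matched 15812 of 19974 coding genes (79.2%). Named genes were the 3 with the smallest p in each direction per segment and the list members, and the called genes HDAC9, CREB5 and TPST1 were added after their values were seen.

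The segments, gene lists and tests were chosen with earlier results of these data known. Alternatives covered the scaling, offset, filter, −log10 q minimum, left-out libraries or segments, peaks also called after RNase H and a replicate block. Some named items are not reported here.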

Additional observations from a re-analysis of the deposited data

Results flagged for a closer look

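Peaks on unplaced pieces of chromosomes 1, 2, 7 and 17, which the comparisons above do not use, were present in every untreated library, with 18, 23 and 24 peaks in shTDP43 replicates 1 to 3 and 22, 25 and 17 in shNC replicates 1 to 3. After RNase H the counts were 8 in shTDP43 and 13 in shNC, and the lowest untreated count was 17. As a share of each list's peaks the order was the other way round, at 0.0897% (shTDP43) and 0.0834% (shNC) after RNase H, against 0.0240% to 0.0359% in the untreated libraries. These pieces have no position relative to the boundaries, and no replicate check of the treated counts was possible.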

How the results depend on the processing

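The log2 ratio of median width turned to −0.012 at a −log10 q of at least 5 and −0.046 at 10, and was 0.011 when peaks shared with the RNase H lists were removed and 0.027 with equal numbers of peaks. Without 17q the log2 ratio of density was −0.00013 and of covered length −0.034. The log2 density ratio was 0.486 against all other autosomes and X, 0.223 and 0.281 at a −log10 q of 5 and 10, 0.275 without chromosome 7, 0.225 over whole segment lengths, 0.220 without 1q and 0.069 per Mb of coding gene span. That of covered length was 0.493, 0.227 and 0.260, 0.368, 0.285, 0.306 and 0.117 in the same order of settings, and 0.099 when peaks shared with the RNase H lists were removed. Leaving out 1 library gave log2 ratios of 0.133 to 0.150 for density, 0.195 to 0.206 for covered length, 0.034 to 0.040 for width and 0.576 to 0.581 for background, at an exact adjusted p of 0.0625, the smallest that 5 libraries allow. The genotype difference in peak share was 0.865 points at a −log10 q of 5, 0.214 with peaks shared with the RNase H lists removed, and −0.468 to 0.247 with 1 library left out. That in covered share was 1.12 points with peaks shared with the RNase H lists removed (exact permutation p = 0.1, adjusted 0.4), 0.362 and 0.182 at a −log10 q of 5 and 10, −0.100 against all other chromosomes, −0.0023 with equal numbers and −0.140 to 0.348 with 1 library left out. That in width was 0.030 with equal numbers of peaks (exact permutation p = 0.1, adjusted 0.4), 0.022 with peaks shared with the RNase H lists removed, −0.070 and −0.012 at a −log10 q of 5 and 10, −0.0092 against all other chromosomes and −0.0023 to 0.013 with 1 library left out. That in background was 0.020 at a −log10 q of 10, 0.00072 without chromosome 7, 0.00076 with equal numbers and −0.014 to −0.00056 with 1 library left out. The log2 density ratio after RNase H was 0.716 in shTDP43 at a −log10 q of 5, and in shNC 0.808 over whole segment lengths and 0.628 without 17q. Regions of shTDP43 alone numbered 10 at a −log10 q of 5 (0.121%, against 0.081% on the rest) and 5 at 10 (0.118% against 0.028%), and those of shNC alone 128 (1.55% against 1.42%) and 61 (1.44% against 1.31%). Genes called by limma, higher and lower, numbered 0 and 2 without scaling (135 at an unadjusted p under 0.05), 5 and 24 with an offset of 1000 bp, 5 and 13 at a mean of at least 2000 bp, 2 and 4 at a −log10 q of 5, 0 and 3 at 10 (85 at an unadjusted p under 0.05), 1 and 7 without a variance trend, and 197 and 103 with peaks shared with the RNase H lists removed. As shares of the genes tested, beside those over all genes, these were 0.117% against 0.156%, 1.69% against 1.80%, 1.23% against 1.34%, 0.368% against 0.274%, 0.197% against 0.293%, 0.467% against 0.585%, and 18.7% against 14.3% (13.5% on the rest), in the same order. In the last setting each library lost the peaks of its own genotype's treated list, and these lists hold 8916 peaks in shTDP43 and 15580 in shNC. With 1 library left out the genes called ranged over 1 to 7 higher and 2 to 18 lower. Their share was 0.176% to 1.33%, against 0.141% to 1.73% over all genes. With the replicate block they were 1 and 10 (0.643%, against 0.578%). Same-numbered libraries correlated at −0.17, 0.06 and −0.17, and differently numbered ones at −0.18 to 0.23. With 3 libraries per group these values cannot decide whether the numbers pair them. The unadjusted limma counts were 135 of 1712 without scaling, against 979 of 12810 over all genes, and 85 of 1521 at a −log10 q of 10, against 615 of 10931. MINDY4 turned to −0.20 with peaks shared with the RNase H lists removed, and NPLOC4 to −0.064 and SAP30BP to −0.032 at a −log10 q of 10. The cause was not tested for any of these. Settings without 17q, 1q or 2p were chosen after seeing the data.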

Other observations

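Further genes of the segments with long covered length were as follows. EXOC4, a subunit of the exocyst, had 63.5 ± 25.0 kb under peaks in shTDP43 and 104.0 ± 6.74 kb in shNC, and its log2 change of −0.60 ± 0.15 did not pass (limma, adjusted p = 0.144). MYT1L, a neuronal transcription factor on 2p, had 93.3 ± 26.7 kb in shTDP43 and 123.0 ± 17.4 kb in shNC. On 17q SEPTIN9, a cytoskeletal GTPase, had 96.2 ± 14.8 kb in shTDP43 and 109.6 ± 3.45 kb in shNC, and RPTOR, a subunit of mTOR complex 1, had 82.0 ± 20.5 kb in shTDP43 and 89.3 ± 9.01 kb in shNC (SD, n = 3 each).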
